A study of Mus musculus with 6 samples.

Results

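Fatty acid beta-oxidation and ketone body genes were examined in liver RNA of mice described as RECS1-deficient in hepatocytes and of their controls. The group has 41 genes of mitochondrial or peroxisomal fatty acid breakdown, chosen with earlier results of these data known. Of them 40 were measured among 18029 genes in all (Acsl1 was not analysed here). By organelle, 17 were assigned to mitochondria and 17 to peroxisomes, and the other 6 were 3 acyl-CoA synthetases, the ketone body enzyme Bdh1, the kinase Pdk4 and the pantetheinase Vnn1. Every gene was represented by its brightest probe set over all 6 arrays, and values are deposited log2 intensities.

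The control group (n = 3) carried the genotype RECS1-flox and the knockout group (n = 3) the genotype RECS1-HKO, which the series title describes as a hepatocyte-specific deficiency. The gene is listed on the array as Tmbim1, its current symbol, and encodes a multipass membrane protein. All 6 mice were C57BL/6, ate a high fat diet (HFD) for 8 weeks and were 16 weeks old, so every value is one of HFD-fed liver and no other diet was compared. The driver of the deletion, the sex of the mice and the C57BL/6 substrain are not stated in the labels, nor is it stated whether the 2 genotypes were littermates. Each array held RNA of whole liver, in which fewer cells of a type and less RNA per cell cannot be told apart.

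The liver burns fatty acids in a pair of organelles. Long-chain fatty acids are first activated to acyl-CoA. The carnitine shuttle carries them into mitochondria, where repeated rounds of dehydrogenation, hydration, dehydrogenation and thiolysis release acetyl-CoA that feeds respiration or ketone body synthesis. Peroxisomes shorten very-long-chain, branched and dicarboxylic acids by a parallel route, and hand the products to mitochondria as carnitine esters. Many of these genes are known targets of PPARa, the fatty acid-sensing nuclear receptor that binds DNA together with RXR.

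Across the 6 arrays the medians lay between 3.92 and 3.95, and correlations over all genes were 0.995 to 0.996 within a genotype and 0.991 to 0.994 across genotypes. Tmbim1 fell by 0.52 ± 0.08 (log2, SE; limma, Benjamini-Hochberg adjusted p = 0.026), from values of 7.58 to 7.74 in the controls to values of 7.06 to 7.19 in HKO. By its only probe set Tmbim1 stood at 0.70 times the control level in HKO, and the source of the remaining signal was not tested. The 10 measured hepatocyte markers averaged 12.24 to 12.29 in the control arrays and 12.12 to 12.32 in HKO, and none passed the test. At an unadjusted p under 0.05, 0 were positive and 2 negative, against 1087 and 1255 of all 18029 genes. These 2 were Fgb (-0.20 ± 0.07; limma, adjusted p = 0.288) and Hnf4a (-0.28 ± 0.12, 0.37), each with all HKO arrays below all controls. Alb, serum albumin, stood at 0.06 ± 0.07. None of 14 macrophage markers passed either (0 at an unadjusted p under 0.05), and their mean level was highest in control 1 (7.86, against 7.14 to 7.72 in the other arrays). Of 5 adipocyte markers, Plin4 rose by 1.31 ± 0.23 (adjusted p = 0.0457), Fabp4 stood at 0.80 ± 0.19 (0.135), and the defining markers Adipoq and Lep were dim in both genotypes, with means of 1.76 and 2.67 in the controls and 1.68 and 2.61 in HKO. Over these 5, 3 values were positive and 2 negative, and the median was 0.04. Their mean level was 4.13 to 4.43 in the controls and 4.62 to 4.77 in HKO, and its part in the results was not tested.

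Means of further lists differed between the genotypes, in some through few of their genes. The mean of 8 brown adipocyte and muscle markers was 4.13 to 4.27 in the controls and 4.40 to 4.60 in HKO. None of the 8 passed (limma; 2 positive and 1 negative at an unadjusted p under 0.05), and the largest value was that of the lipid droplet protein gene Cidea, at 2.95 ± 0.54 with no overlap (adjusted p = 0.0549). Over the 8, 4 values were positive and 4 negative, the median was -0.03 and the lowest was Elovl3 at -0.75 ± 0.25. The mean of this list thus differed while its median lay near 0, and a shift of the list as a whole was not tested. The mean of 4 cholangiocyte markers was 3.60 to 3.71 in the controls and 3.25 to 3.45 in HKO, with 0 past the threshold (0 positive and 1 negative at an unadjusted p under 0.05) and Sox9 at -0.66 ± 0.18 with no overlap (adjusted p = 0.171). Of 10 female-biased liver genes 5 rose (0.56% of all genes) and of 9 male-biased genes 4 fell (0.449% of all genes). The mean level of the male-biased genes was 10.20 to 10.37 in the controls, 8.92 in HKO 2 and 7.63 and 7.84 in HKO 1 and HKO 3. Nnt, the mitochondrial transhydrogenase that is disrupted in one C57BL/6 substrain and intact in others, rose from 7.67 ± 0.12 to 9.10 ± 0.23 (mean ± SD, n = 3 each), a difference of 1.43 ± 0.13 (adjusted p = 0.00173), with 1.85 by its other probe set. Wdfy1, also known to differ between substrains, rose by 1.25 ± 0.08 (adjusted p = 0.000297). The part of these lists, of sex-biased expression or of substrain in the results below was not tested, and a difference of substrain between the groups cannot be told apart from genotype.

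Most beta-oxidation genes lay slightly higher in HKO liver. Log2 fold changes (HKO minus control) were positive for 35 of 40 members, against 48.8% of all genes, and the median was 0.19 against -0.0041 for all genes. In 25 members all 3 HKO arrays lay above all 3 control arrays, a pattern that 8.58% of all genes showed, and 0 members lay below in all 3, which 10.1% of all genes did. By the test, 2 members rose past the threshold (limma, adjusted p under 0.05; 0.56% of all genes) and 0 fell (0.449% of all genes). Ehhadh and Vnn1 were the 2 that rose. At an unadjusted p under 0.05, 20 members had a positive and 0 a negative difference, against 1087 and 1255 of all 18029 genes. The members were chosen with earlier results of these data known, so the shares of all genes are no independent comparison. Of 37 related genes that are not members, described below, 59.5% were positive and 18.9% lay above all controls in all HKO arrays.

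**Figure D1:**
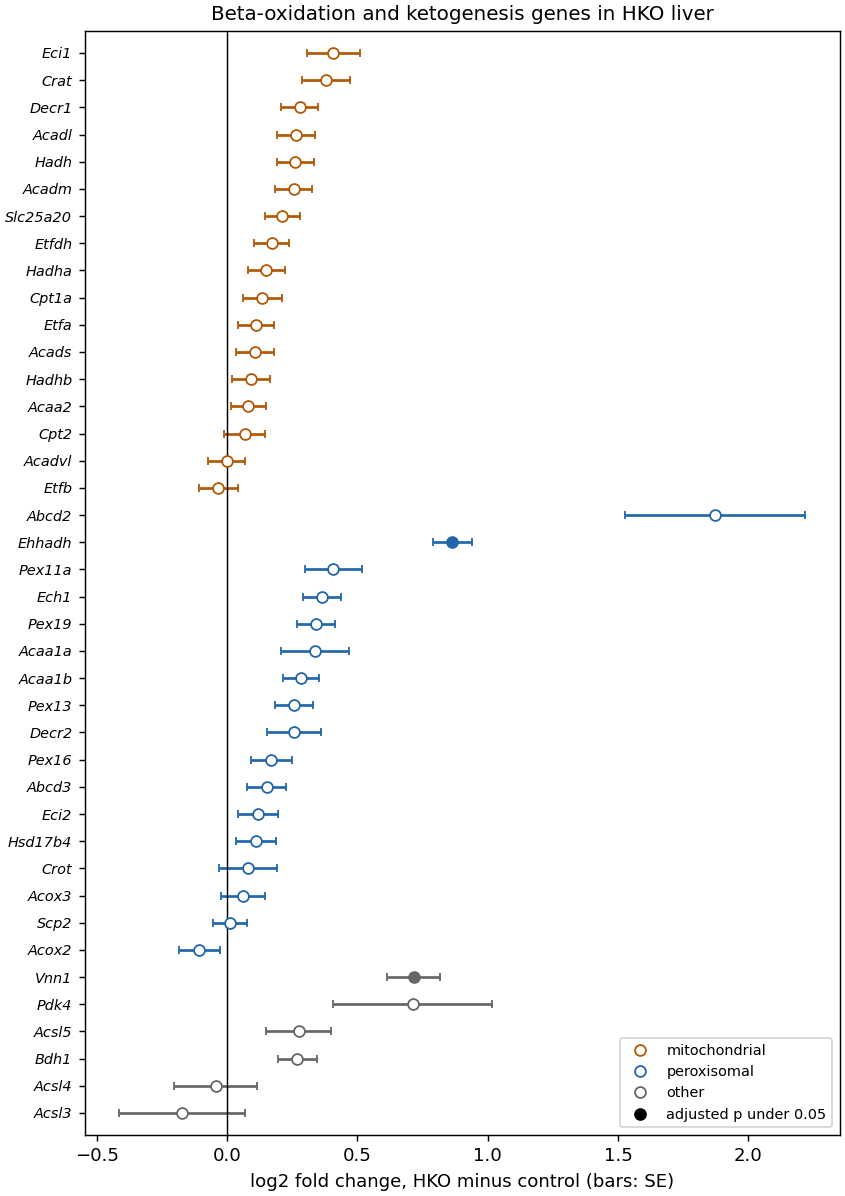
Log2 fold change of the 40 measured members (HKO minus control, 3 arrays each) with its standard error, in organelle groups, where filled circles passed an adjusted p of 0.05. Values of 35 members lie right of 0, Abcd2 is farthest at 1.87 with the widest bar, and Ehhadh (0.87) and Vnn1 (0.72) are filled.

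Ehhadh, the peroxisomal bifunctional enzyme that hydrates and then oxidises enoyl-CoA and is a standard PPARa target, had values of 9.77, 9.87 and 9.80 in the controls and 10.69, 10.60 and 10.75 in HKO. The lowest HKO array lay 0.73 above the highest control, while the SDs were 0.05 and 0.08. Its log2 fold change was 0.87 ± 0.08 or 1.82 times the control level (adjusted p = 0.00172), and it passed in all 6 fits without 1 array (adjusted p from 0.00453 to 0.0176). The promoter windows of Ehhadh and of Ech1, a further peroxisomal enzyme described below, are shown because these were the 2 among the 5 members with an adjusted p under 0.1 that have an entry in the RefSeq promoter table (build GRCm38.p6). Ehhadh lies at chr16:21787785-21788084 on the minus strand and Ech1 at chr7:28825088-28825387 on the plus strand, each printed 5′ to 3′ with 250 bases before the start in lower case and the 50 bases from the start in capitals.
Ehhadh: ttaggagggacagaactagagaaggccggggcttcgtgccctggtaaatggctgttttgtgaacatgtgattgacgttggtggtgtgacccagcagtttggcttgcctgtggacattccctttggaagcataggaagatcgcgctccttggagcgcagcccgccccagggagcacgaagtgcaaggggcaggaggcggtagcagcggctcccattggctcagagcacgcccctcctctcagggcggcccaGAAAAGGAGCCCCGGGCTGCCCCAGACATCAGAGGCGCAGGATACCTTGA
Ech1: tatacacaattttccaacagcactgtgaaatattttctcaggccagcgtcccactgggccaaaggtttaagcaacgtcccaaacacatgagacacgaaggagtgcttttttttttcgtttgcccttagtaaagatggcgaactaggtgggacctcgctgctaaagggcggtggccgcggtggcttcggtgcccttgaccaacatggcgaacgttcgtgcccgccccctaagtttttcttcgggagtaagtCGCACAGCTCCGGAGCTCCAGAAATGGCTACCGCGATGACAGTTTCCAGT
Both windows and those of all other members with an entry (34 of the 41 genes, 39 windows) were searched on both strands for a direct repeat of AGGTCA with 1 base between the copies, the element that PPARa and RXR bind. The exact repeat was found in 0 of the 39 windows (0.0396% of all 32851 windows), and with 1 mismatch allowed again in 0 (0.554% of all). These counts describe windows of 300 bases only. With shares this low over all windows, 0 among 39 cannot show whether the members differ from other genes.

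Vnn1 encodes pantetheinase, which releases cysteamine and pantothenate, the precursor of coenzyme A, and it too is a known PPARa target. Control values were 9.59, 9.28 and 9.50 and HKO values 10.07, 10.17 and 10.29. All 3 HKO arrays were higher, by at least 0.48. The log2 fold change was 0.72 ± 0.10 (adjusted p = 0.0215), and the other probe set of the gene stood at 0.96 ± 0.12. Vnn1 passed in 1 of the 6 fits without 1 array, the one without control 1, with adjusted p between 0.0382 and 0.0781.

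Abcd2, a peroxisomal half-transporter for very-long-chain and polyunsaturated acyl-CoA, had the largest difference of all members and also the largest spread. Values were 3.78, 3.66 and 4.77 in the controls and 6.42, 5.31 and 6.10 in HKO. Control 3 was the highest control and HKO 2 the lowest HKO array, and the groups did not overlap. The log2 fold change of 1.87 ± 0.35 did not pass (adjusted p = 0.0547), and over the 6 fits without 1 array it lay between 1.63 and 2.23 with adjusted p between 0.0322 and 0.193. It passed in 2 of these, without control 3 (2.23, 0.0351) and without HKO 2 (2.19, 0.0322), and had an adjusted p of 0.162 with eBayes' trend and robust options. When each probe set was tested on its own, over 34325 probe sets, 2 of the other 3 Abcd2 probe sets passed, at 2.26 ± 0.31 (0.0208) and 2.59 ± 0.31 (0.0101), and the dimmest stood at 0.83 ± 0.32 (0.344). The control mean of 4.07 lies below the median gene (4.69), so the gene is dim in control liver. Abcd3, the abundant liver transporter of the same family that carries branched and dicarboxylic acyl-CoA, had control values of 11.56, 11.60 and 11.69 and HKO values of 11.73, 11.72 and 11.84. That is a difference of 0.15 ± 0.08 (adjusted p = 0.455), with no overlap but a gap of only 0.035 between the groups. A dim probe set of Abcd3 stood at -0.39.

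**Figure D2:**
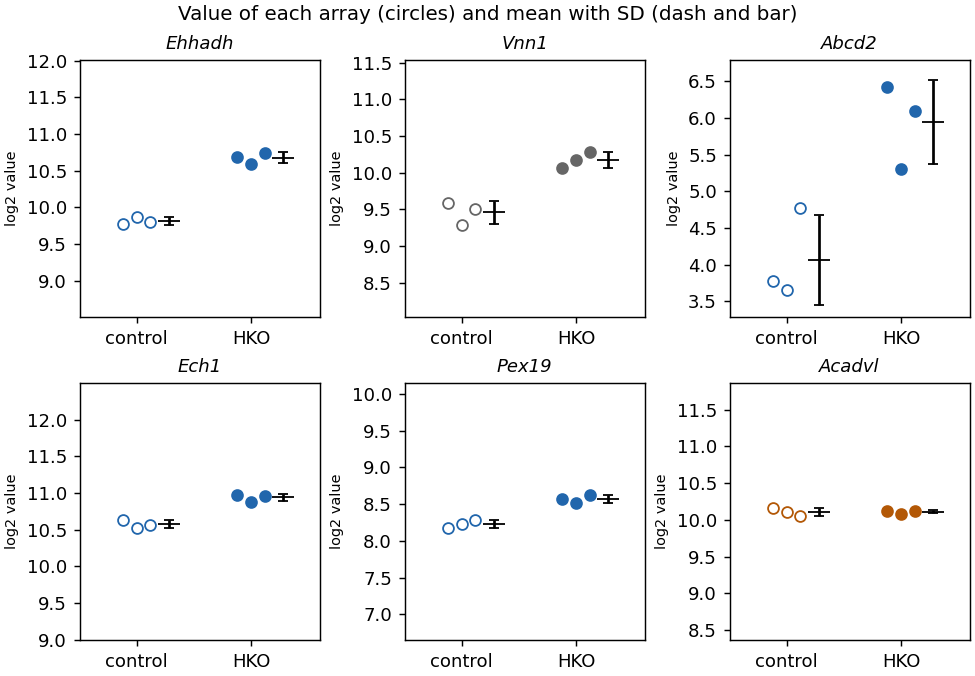
Log2 values of each array (open circles control, filled circles HKO; n = 3 each) with mean and SD beside them for 6 members, on axes that all span the same range. Ehhadh and Vnn1 passed the test, Abcd2, Ech1 and Pex19 had groups that do not overlap and adjusted p of 0.0547, 0.0692 and 0.0857, and Acadvl lay at 10.11 in both genotypes.

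The other 6 core peroxisomal enzymes did not pass. Acaa1b, a peroxisomal thiolase of the last step, had control values of 12.73, 12.74 and 12.77 and HKO values of 13.00, 13.02 and 13.07. The groups lay 0.23 apart, and the difference was 0.28 ± 0.07 (adjusted p = 0.13). Its near-identical neighbour Acaa1a stood at 0.34 ± 0.13 with overlapping groups and at 0.03 ± 0.10 by its other probe set. Both Acaa1a probe sets carry the array suffix for probes that may match other transcripts, so signal of the 2 thiolases may not be separated. Among the mitochondrial members, the brightest probe sets of Crat and Hadh carry the same suffix. Hsd17b4, the second bifunctional enzyme, which handles branched acids and bile acid precursors, stood at 0.11 ± 0.08. Its other probe set, of like brightness, stood at 0.43 ± 0.14 (limma over all probe sets, adjusted p = 0.273). Scp2, the sterol carrier and branched-chain thiolase, stood at 0.01 ± 0.07 (95% interval from -0.14 to 0.17). Acox2, the oxidase of branched acids and bile acid intermediates, was the only peroxisomal member with a negative value, -0.11 ± 0.08 (interval from -0.29 to 0.08). Acox3, another branched-chain oxidase, was dim in both genotypes (3.36 and 3.42) and stood at 0.06 ± 0.08.

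Auxiliary enzymes make double bonds fit for the core cycle, and Crot exports shortened acids as carnitine esters. Ech1, a dienoyl-CoA isomerase, had values of 10.63, 10.53 and 10.57 in the controls and 10.97, 10.88 and 10.97 in HKO. Its groups lay 0.25 apart and the difference was 0.36 ± 0.07 (adjusted p = 0.0692). Decr2, the peroxisomal dienoyl-CoA reductase, went from 7.23, 7.49 and 7.27 to 7.65, 7.42 and 7.68, so that HKO 2 lay among the controls (0.26 ± 0.10, adjusted p = 0.35). Eci2 stood at 0.12 ± 0.08 and Crot at 0.08 ± 0.11 (with a dim probe set at -0.18), both with overlapping groups.

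Peroxins build and divide the organelle, and all 4 of this group lay above the controls in every HKO array (8.58% of all genes), although none passed. Pex19, the chaperone and import receptor for peroxisomal membrane proteins, had control values of 8.17, 8.23 and 8.28 and HKO values of 8.58, 8.52 and 8.62. Its difference was 0.34 ± 0.07 (adjusted p = 0.0857), and its other 2 probe sets stood at 0.33 and 0.16. Pex11a, which promotes peroxisome division and is a PPARa target, went from 8.41, 8.66 and 8.82 to 9.07, 8.98 and 9.07 (0.41 ± 0.11, adjusted p = 0.168), with 0.28 by its other probe set of like brightness. Pex13, of the matrix import pore, stood at 0.26 ± 0.07 and Pex16, which acts early in membrane assembly, at 0.17 ± 0.08, with -0.26 by a dim probe set. Of 9 other measured peroxins 0 passed (limma; 1 positive and 0 negative at an unadjusted p under 0.05) and 6 were positive. All HKO arrays lay above all controls for 2 of them (8.58% of all genes), and the median was 0.09. Both sets of peroxins were listed with earlier results of these data known, so they are no independent comparison.

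None of the 17 mitochondrial members passed (limma), while 1 passed with eBayes' trend and robust options and 2 by the median of a gene's probe sets. Unadjusted p lay under 0.05 for 8 with a positive and 0 with a negative difference, against 1087 and 1255 of all 18029 genes. Nevertheless 15 were positive (48.8% of all genes) and in 13 all HKO arrays lay above all control arrays (8.58% of all genes). The median was 0.15, with values from -0.03 to 0.41. The 2 below 0 were Acadvl and Etfb. Crat and, among the peroxisomal genes, Ech1 and Eci2 have products in both organelles.

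The carnitine shuttle was led by Crat, which exchanges acetyl and short acyl groups between CoA and carnitine. Control values were 6.51, 6.63 and 6.78 and HKO values 6.94, 7.03 and 7.09. That is a difference of 0.38 ± 0.09 (adjusted p = 0.13), and its other probe sets stood at 0.69 and 0.24. Slc25a20, the inner-membrane carrier that swaps acylcarnitine for carnitine, went from 10.22, 10.20 and 10.26 to 10.45, 10.46 and 10.41 (0.21 ± 0.07, adjusted p = 0.238). Cpt1a, the outer-membrane and rate-limiting step of the shuttle, stood at 0.14 ± 0.08 (adjusted p = 0.507), with groups 0.05 apart and dimmer probe sets at 0.23 and 0.49. Cpt2, which restores acyl-CoA in the matrix, stood at 0.07 ± 0.08 with overlapping groups.

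Among the acyl-CoA dehydrogenases, which share the first step of the cycle by chain length, 3 of 4 were positive and none passed. Acadm (medium chain) went from 11.38, 11.34 and 11.26 to 11.62, 11.55 and 11.56, a difference of 0.26 ± 0.07 (adjusted p = 0.191). Acadl (long chain) went from 9.87, 9.82 and 9.92 to 10.17, 10.05 and 10.18, a difference of 0.27 ± 0.07 (adjusted p = 0.188), with -0.18 by a dim probe set and 0.043 by the median of both. Acads (short chain) stood at 0.11 ± 0.07, and Acadvl (very long chain) at -0.0006 ± 0.07 with a 95% interval from -0.16 to 0.16. The intervals of Acadm (0.09 to 0.42) and Acadvl overlap, and the difference between these genes was not tested.

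None of the 4 genes of the later steps passed, and 3 lay above all controls in all HKO arrays (8.58% of all genes). Hadh, the dehydrogenase of short and medium chains, had control values of 12.05, 12.01 and 11.93 and HKO values of 12.22, 12.26 and 12.30 (0.26 ± 0.07, adjusted p = 0.179). A second, dimmer Hadh probe set stood at 0.50 ± 0.08 and passed when each probe set was tested (adjusted p = 0.0456). Hadha, the alpha subunit of the trifunctional protein for long chains, went from 8.90, 8.94 and 8.85 to 9.06, 8.99 and 9.09 (0.15 ± 0.07, adjusted p = 0.425). Its partner subunit Hadhb stood at 0.09 ± 0.07 (with a dim probe set at -0.29) and the thiolase Acaa2 at 0.08 ± 0.07.

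The electron transfer flavoprotein takes electrons from the dehydrogenases to the respiratory chain. Etfdh, its membrane oxidoreductase, went from 9.84, 9.84 and 9.86 to 10.03, 10.01 and 10.01, a difference of 0.17 ± 0.07 (adjusted p = 0.325) with an SD of 0.01 in both groups and -0.09 by a dim probe set. Etfa, the alpha subunit, went from 10.92, 10.82 and 10.91 to 10.99, 10.98 and 11.01 (0.11 ± 0.07), and the beta subunit Etfb stood at -0.03 ± 0.07 with overlapping groups. Eci1 and Decr1, which isomerise and reduce double bonds of unsaturated acids, had no overlap. Eci1 went from 9.91, 9.99 and 9.64 to 10.31, 10.25 and 10.20 (0.41 ± 0.10, adjusted p = 0.147). Decr1 went from 10.09, 10.06 and 10.10 to 10.34, 10.32 and 10.44 (0.28 ± 0.07, adjusted p = 0.153), but its other probe set stood at 0.02.

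**Figure D3:**
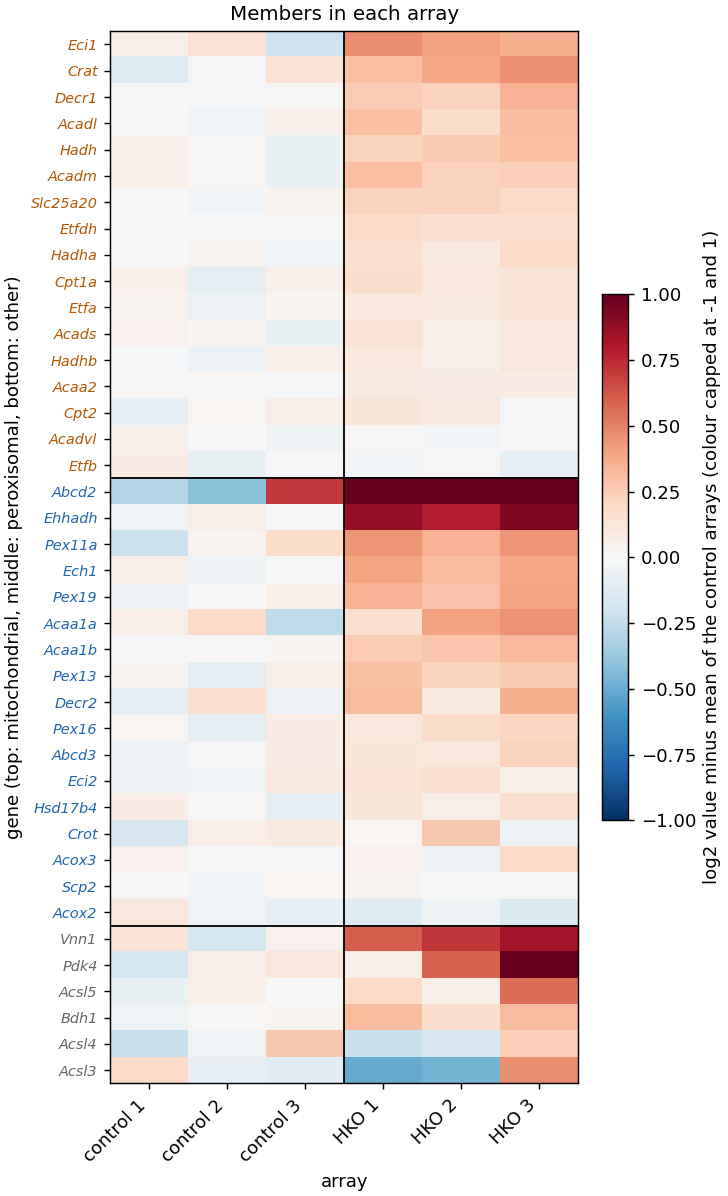
Log2 value of each member (rows) in each array (columns) minus the mean of the 3 control arrays, red above and blue below, with colour capped at -1 and 1; rows are grouped as mitochondrial, peroxisomal and other. HKO columns are red for most mitochondrial and peroxisomal rows, while Abcd2 varies within the controls and Pdk4 and Acsl3 vary within HKO.

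Outside the organelle cycles the picture was mixed. Bdh1, the mitochondrial enzyme that turns acetoacetate into beta-hydroxybutyrate, went from 10.47, 10.53 and 10.54 to 10.83, 10.69 and 10.83 (0.27 ± 0.07, adjusted p = 0.185), with 0.28 by its other probe set. Pdk4, the kinase that shuts pyruvate dehydrogenase off when fat is burned, had control values of 5.19, 5.44 and 5.48 and HKO values of 5.43, 5.96 and 6.86. HKO 1 lay among the controls and HKO 3 far above, so that the difference of 0.71 ± 0.30 (adjusted p = 0.376) was 0.33 without HKO 3.

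Acyl-CoA synthetases activate fatty acids for storage as well as for oxidation. Acsl5 had control values of 10.25, 10.38 and 10.32 and HKO values of 10.51, 10.38 and 10.87 (0.27 ± 0.12, adjusted p = 0.406), which was 0.13 without HKO 3. Acsl3, a lipid droplet-associated form, went from 6.53, 6.25 and 6.24 to 5.83, 5.87 and 6.80, with HKO 3 above and HKO 1 and HKO 2 below all controls (-0.17 ± 0.24, adjusted p = 0.814; -0.49 without HKO 3). Acsl4, which prefers arachidonate, stood at -0.04 ± 0.16. HKO 3 was the highest HKO array for Pdk4, Acsl5, Acsl3 and Acsl4.

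Mitochondrial and peroxisomal members were compared as lists, by description only, since genes are not replicates. The median log2 fold change was 0.15 for the mitochondrial and 0.26 for the peroxisomal list. In all HKO arrays 13 of 17 and 9 of 17 members lay above all controls (8.58% of all genes). Mean differences from the control mean were 0.19, 0.16 and 0.18 for mitochondrial and 0.35, 0.27 and 0.37 for peroxisomal members in HKO 1, HKO 2 and HKO 3. The peroxisomal mean exceeded the mitochondrial one by 0.12 to 0.19 in the HKO arrays, against -0.05 to 0.06 in the controls. Without Abcd2 and Ehhadh, chosen after their values were seen, the excess was -0.01 to 0.04 in HKO and -0.03 to 0.02 in the controls, and the peroxisomal median was 0.17. The excess of the peroxisomal mean therefore rested on those 2 of its 17 genes.

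**Figure D4:**
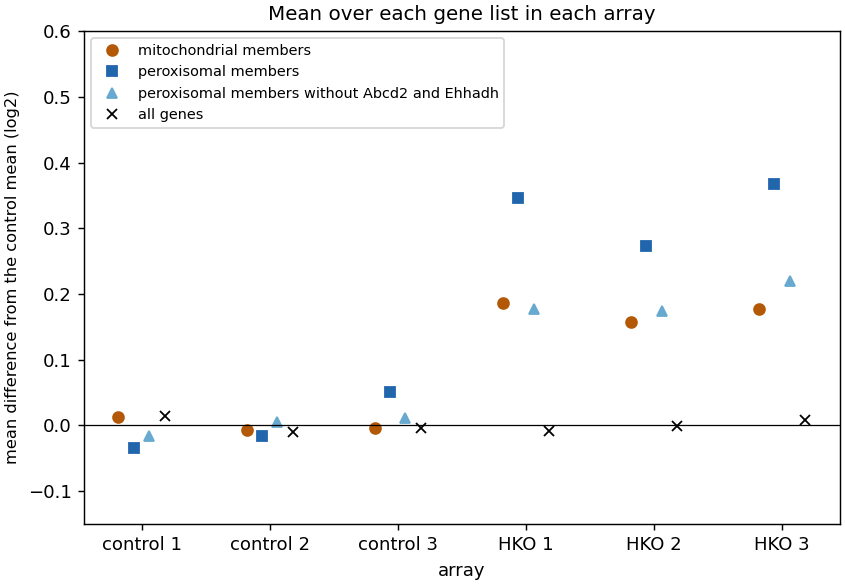
Mean over the genes of each list of the log2 value minus the control mean, for each of the 6 arrays. Peroxisomal members (squares) reach 0.27 to 0.37 in HKO and mitochondrial members (circles) 0.16 to 0.19, while the peroxisomal list without Abcd2 and Ehhadh (triangles) lies at 0.17 to 0.22 and all genes (crosses) near 0.

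Further probe sets of the members measure the same RNA with other oligonucleotides. The 40 members have 77 probe sets, of which 6 passed upward (0.379% of all probe sets) and 0 downward (0.341% of all) when each was tested. These were 1 of Ehhadh, 2 of Vnn1, 2 of Abcd2 and 1 of Hadh. Of the 37 probe sets that are not the brightest of their gene 28 were positive, and of the 22 among them above the median gene 20 were. Acsl4, with probe sets at -0.04, -0.11 and -0.38, had the 2 that were not. The 20 include an Abcd2 probe set that lay above the median gene (4.69) only through HKO, with means of 3.83 in the controls and 6.09 in HKO.

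**Figure D5:**
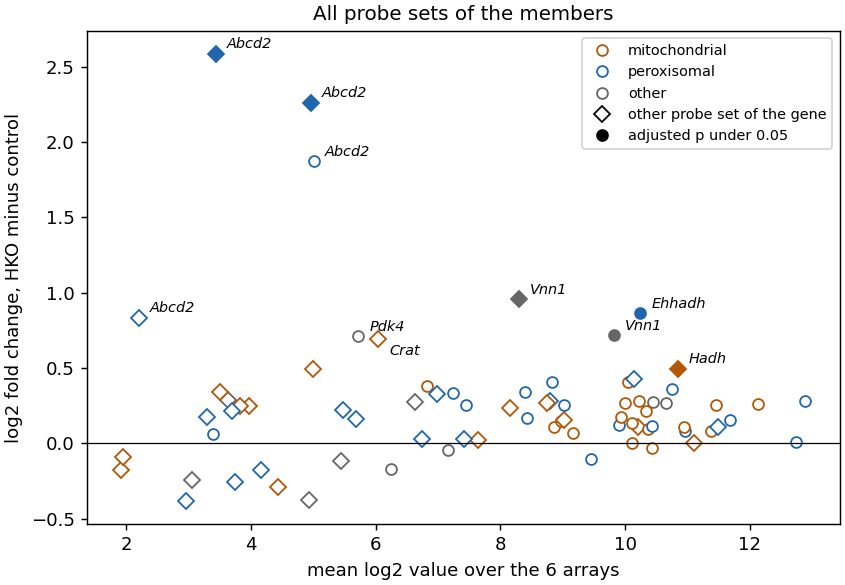
Log2 fold change of all 77 probe sets of the members (HKO minus control) against their mean log2 value over the 6 arrays, with diamonds for probe sets that are not the brightest of their gene and filled symbols for an adjusted p under 0.05 over all probe sets. Of the 22 other probe sets above the median gene 20 are positive, and 3 of 4 Abcd2 probe sets lie between 1.87 and 2.59.

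A wider list of 45 genes of fatty acid oxidation, ketone metabolism and peroxisomes that are not members was set beside them, and 37 were measured. None passed (limma), and 22 were positive (59.5%, against 48.8% of all genes). Unadjusted p lay under 0.05 for 5 with a positive and 3 with a negative difference, against 1087 and 1255 of all 18029 genes. All HKO arrays lay above all controls for 7 (18.9%, against 8.58% of all genes). They lay below for 4 of the 37, a pattern that 10.1% of all genes showed. The median was 0.06. The lowest p belonged to Nudt7, the peroxisomal diphosphatase that degrades coenzyme A and its esters. Control values were 11.80, 12.02 and 12.10 and HKO values 11.36, 11.58 and 11.34, a difference of -0.55 ± 0.11 (adjusted p = 0.0635), opposite in sign to most members. Acat1, the mitochondrial acetoacetyl-CoA thiolase of ketone metabolism, stood at 0.22 ± 0.07 (adjusted p = 0.255).

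PPARa, its partners and targets outside beta-oxidation formed a last list, of which 15 of 17 were measured. Of these 4 rose and 0 fell, against 0.56% and 0.449% of all genes. At an unadjusted p under 0.05, 6 were positive and 2 negative, against 1087 and 1255 of all 18029 genes. In all HKO arrays 7 lay above and 2 below all controls (8.58% and 10.1% of all genes). The 4 that rose were the acyl-CoA thioesterases Acot2, Acot3 and Acot4 and the fatty acid transporter Cd36. Thioesterases release fatty acids from CoA. Acot2, the mitochondrial form, went from 6.90 ± 0.16 to 7.89 ± 0.35 (mean ± SD, n = 3 each), a difference of 0.99 ± 0.17 (limma, adjusted p = 0.0431). Acot3 rose by 2.36 ± 0.23 (adjusted p = 0.00287), Acot4 by 0.87 ± 0.10 (0.00878) and Cd36 by 1.61 ± 0.20 (0.0113), and Acot3 is also one of the 5 female-biased genes that rose. Just 1 of the list passed without control 2 or without HKO 1, and 2 without control 3. The negative values were those of Rxra, the partner receptor (-0.27 ± 0.10, adjusted p = 0.281, no overlap), Angptl4, a lipoprotein lipase inhibitor (-0.42 ± 0.17, adjusted p = 0.34), and Creb3l3 (-0.16). Ppara itself stood at 0.09 ± 0.09, and Cyp4a14, a fatty acid omega-hydroxylase, at 1.54 ± 0.37 (adjusted p = 0.13) with its lowest control array at 8.85 and all HKO arrays between 11.32 and 11.46.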

How the data were processed

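Liver RNA of 6 mice (3 control, 3 HKO) was measured on Affymetrix arrays from 400 ng of total RNA, per the labels' protocols. The authors deposited log2 values. The submitters' processing notes name RMA and limma, with no version or settings. RMA brings the arrays to 1 distribution, which hides any shift shared by all transcripts. Precision is limited by having 3 arrays a group.

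Of 38208 probe sets, 13 controls, 62 with several genes and 3808 unnamed here were left out. The remaining 34325 (34131 matched by gene identifier to the GRCm38.p6 table, 0 symbols changed) gave 18029 genes, each by its brightest probe set. The fit used limma 3.58.1 under R 4.3.3 (lmFit, eBayes, genotype only, two-sided), with Benjamini-Hochberg adjustment across all genes and a threshold of 0.05. Errors are standard errors of the fit, or SD where stated, and intervals are 95%. The smallest p of an exact permutation test is 0.1 at this size. The series' design text calls the samples biological, and 0 pairs were identical. The steps were tested on simulated data.

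The members and lists were chosen with earlier results of these data known. Array values were given for members past the threshold and for those of lowest p in each role. Alternatives were quantile normalization, median centring, leaving out dim genes, other probe set rules, eBayes options, array weights, a replicate block, an adjusted p under 0.1, leaving out shared members and leaving out each array. The choice of probe sets by control arrays alone and leaving out Abcd2 and Ehhadh were added after the data were seen. Protein sequences were not used here.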

Additional observations from a re-analysis of the deposited data

How the results depend on the processing

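Ehhadh passed in all 6 fits without 1 array and all 9 other refits, and no member passed downward in any of them. The count of members that rose (2) was 5 without the genes under the median gene or by the median of a gene's probe sets, 6 with eBayes' trend and robust options and 5 at an adjusted p under 0.1, and 1 to 2 without 1 array (1 without control 2, HKO 1 or HKO 3). Of peroxisomal members (1), 2 passed with centred arrays, array weights or the median of probe sets, 4 without dim genes, with trend and robust options or at an adjusted p under 0.1, and 1 to 2 without 1 array (2 without control 3 or HKO 2). Abcd2 was among those that passed without dim genes (limma, adjusted p = 0.0453), although its control mean of 4.07 lay under the median gene (4.69). It stayed in that fit through its HKO mean of 5.94, so this count is no separate support for it. Mitochondrial counts were 2 by the median of probe sets and 1 with trend and robust options. In the wider list 1 gene passed with quantile normalization, without dim genes, by the median of probe sets, with trend and robust options and at an adjusted p under 0.1. Over all genes 344 passed at an adjusted p under 0.1, against 182, and 161 without HKO 2 and 78 to 94 without any other array; the PPARa list gave 1 to 4. Some of these fits had fewer genes or arrays, and causes of these changes were not tested.

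Without 1 array the mitochondrial median lay between 0.14 and 0.18 and the peroxisomal between 0.21 and 0.28. Leaving out Abcd2 and Ehhadh gave a peroxisomal median of 0.17 and a difference of organelle means of 0.017, against 0.16. Positive members numbered 33 to 36 in all refits.

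Some values that did not pass changed sign, against 0.15 for Abcd3, 0.08 for Crot, 0.17 for Pex16 and -0.17 for Acsl3 by the brightest probe set. By the median of probe sets Abcd3 stood at -0.12, Crot at -0.047, Pex16 at -0.044 and Acsl3 at 0.28. Scp2 stood at -0.013 with quantile normalization and Acadvl at 0.0014 with array weights. Without 1 array Acadvl lay between -0.027 and 0.028, Etfb between -0.070 and 0.0035, Crot between -0.015 and 0.15, Scp2 between -0.0017 and 0.022, Acsl4 between -0.19 and 0.090 and Acox3 between -0.0042 and 0.12.

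Correlations of deviations between control and HKO arrays of equal number were -0.09, 0.07 and 0.11, and between those of unequal number -0.15 to 0.08. With 3 arrays a group these values cannot show whether the samples were paired. With the replicate block 125 genes passed and 2 peroxisomal members, Ehhadh and Abcd2 (adjusted p = 0.0387), while Vnn1 had 0.0546. Dim signal limits Abcd2 and Acox3.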
